A study of Mus musculus with 36 samples.

Results

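The 40 genes described here encode proteins of mitosis: cyclins and the kinase they switch on, kinetochore and spindle checkpoint proteins, spindle motors, the machinery that ends metaphase, and the proteins that split the cell. They were matched by gene symbol to a given list, and all 40 were found among the 46078 genes counted in each library. The series holds 36 RNA-seq libraries of total RNA in 12 groups of 3. RM-1-BM mouse prostate cancer cells carried SPOP F133V, a prostate cancer mutation of a substrate adaptor for ubiquitin ligation, or the empty vector (EV). They were grown alone or in transwell coculture with RAW264.7 mouse macrophages, and each culture received olaparib, an inhibitor of the DNA repair enzyme PARP, or DMSO as vehicle.

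The cancer cell groups grown alone were EV+Ola and EV+DMSO (vector cells) and F133V+Ola and F133V+DMSO. Those from coculture were EV+RAW264.7+Ola, EV+RAW264.7+DMSO, F133V+RAW264.7+Ola and F133V+RAW264.7+DMSO. The macrophage groups were RAW264.7+EV+Ola, RAW264.7+EV+DMSO, RAW264.7+F133V+Ola and RAW264.7+F133V+DMSO, named for the cancer cells opposite them. All macrophages analysed here came from coculture, so the effect of coculture itself on macrophages was not measured. F133V was introduced by transduction of an established line, and the sources used here do not say whether the transduced cells were a clone or a pool. They also leave out the olaparib dose, the exposure time, and whether replicate libraries stem from separate cultures, so the p-values rest on the spread between libraries, which may be technical.

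Mitosis separates the copied chromosomes into daughter cells. Cyclin-dependent kinase 1 with its B-type cyclins drives cells into it, kinetochores tie chromosomes to spindle microtubules, and the anaphase-promoting complex ends it by marking cyclin B and securin for destruction. Transcripts of these genes build up late in the cell cycle and are low in resting cells. Their level in a culture thus depends in part on how many cells are late in the cycle. It does not show how fast cells divide, which was not measured here. Many of their promoters share a pair of short sequences: the cell cycle genes homology region (CHR), bound by the DREAM and MuvB complexes that repress or activate these genes through the cycle, and CCAAT boxes, bound by NF-Y.

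Promoter windows of RefSeq on GRCm38.p6, from 250 bases before to 50 bases after the gene's start, were at hand for 32 of the 40 genes. The letters TTTGAA or their reverse complement TTCAAA, or TTCGAA, which is its own reverse complement, were searched as the CHR. CCAAT and its reverse complement ATTGG were searched as the CCAAT box. CHR letters lay in the window of 25 of 32 mitosis genes (78.1%), against 21.7% of 27025 genes with a window. CCAAT letters lay in 24 of 32 (75%), against 41.1%, and both lay in 22 of 32 (68.8%), against 8.61%. Within 40 bases before to 50 after the start, a range chosen after the positions were seen, 23 of 32 (71.9%) held CHR letters, against 5.48% of all genes. Among the genes with a window, Ccnb1, Cenpe, Mad2l1, Nuf2, Knstrn, Birc5 and Nusap1 had no such letters in it. A match describes the letters and not a bound site.

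The 150 bases before the start are shown for 6 genes, as they show the pair of elements that most of these genes have in common. They were picked as examples with CHR letters in this stretch. Capitals mark the CHR and CCAAT letters, each sequence is written on the strand of its gene, and the last base is the one just before the start. Prc1 has windows with different starts, and the more downstream start is used for it. The regions are chr10:69352913-69353062 (minus strand) for Cdk1, chr4:118437344-118437493 (minus strand) for Cdc20, chr7:80294326-80294475 (plus strand) for Prc1, chr15:102296143-102296292 (plus strand) for Espl1, chr19:37376232-37376381 (plus strand) for Kif11 and chr11:99024190-99024339 (minus strand) for Top2a.
Cdk1: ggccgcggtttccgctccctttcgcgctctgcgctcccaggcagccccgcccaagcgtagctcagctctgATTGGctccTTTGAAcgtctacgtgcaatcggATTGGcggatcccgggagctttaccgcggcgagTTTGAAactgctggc
Cdc20: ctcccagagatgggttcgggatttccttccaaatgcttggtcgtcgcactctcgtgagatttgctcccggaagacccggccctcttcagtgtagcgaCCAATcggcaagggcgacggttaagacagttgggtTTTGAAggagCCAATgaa
Prc1: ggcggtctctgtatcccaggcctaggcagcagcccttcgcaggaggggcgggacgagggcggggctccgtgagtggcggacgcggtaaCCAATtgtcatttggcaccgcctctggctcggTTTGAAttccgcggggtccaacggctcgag
Espl1: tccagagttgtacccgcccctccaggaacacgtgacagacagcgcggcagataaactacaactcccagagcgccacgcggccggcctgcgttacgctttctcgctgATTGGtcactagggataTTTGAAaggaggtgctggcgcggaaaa
Kif11: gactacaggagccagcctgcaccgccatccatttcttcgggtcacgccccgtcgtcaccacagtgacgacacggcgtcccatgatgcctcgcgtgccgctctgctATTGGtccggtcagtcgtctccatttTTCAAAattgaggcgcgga
Top2a: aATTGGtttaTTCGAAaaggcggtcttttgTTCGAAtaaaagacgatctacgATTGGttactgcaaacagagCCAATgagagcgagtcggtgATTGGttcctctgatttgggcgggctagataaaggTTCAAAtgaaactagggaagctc
In each of the 6, CHR letters stand downstream of at least 1 CCAAT box.

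**Figure D1:**
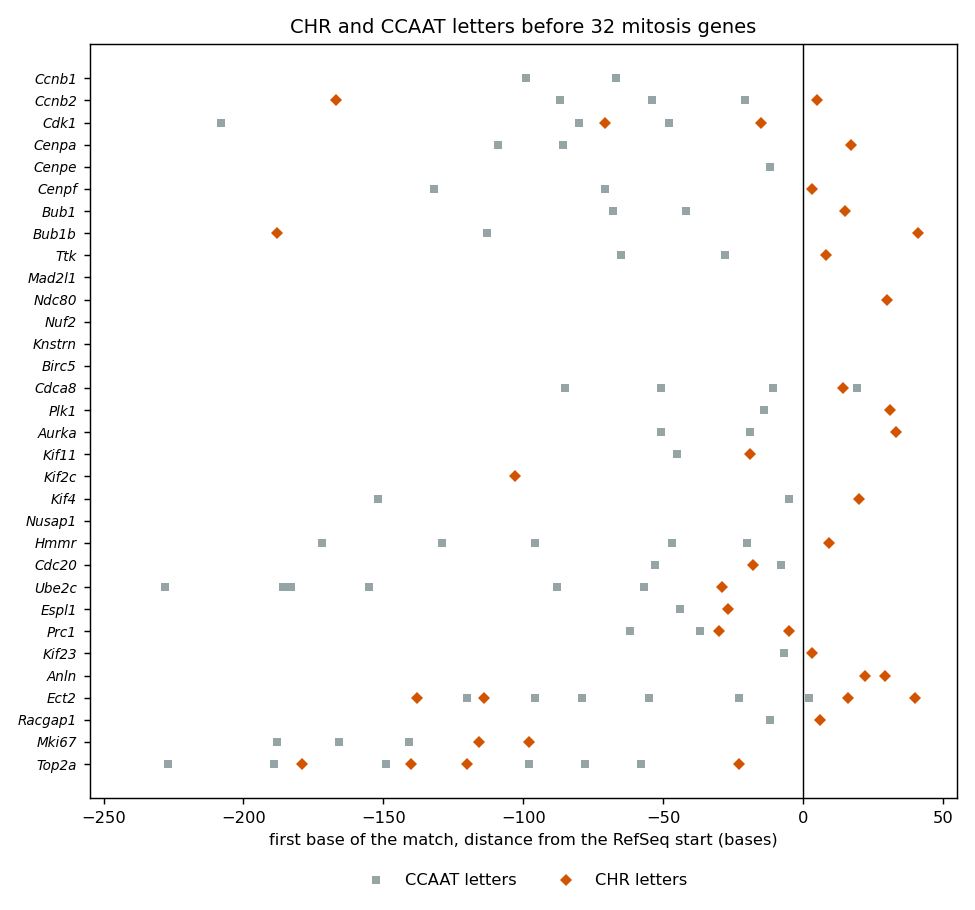
Position of the first base of each CHR match (diamonds) and each CCAAT match (squares), in bases from the RefSeq start, in the promoter windows of 32 mitosis genes, 1 row a gene. CHR letters lie in 25 of the 32 and gather within 40 bases before to 50 after the start, where 23 genes hold them. Prc1 and Ect2 have windows with different starts, so their matches are drawn once for each start.

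Libraries held 30292309 to 43062440 reads counted in genes, and the replicate spread was small, with a biological coefficient of variation of 2.61% among cancer cell libraries and 1.81% among macrophages. Levels are given as CPM, a gene's counts scaled to the counts of its whole library, with edgeR's TMM factors, set within each cell type, so levels were not compared between cell types. Spop, the gene of the transduced protein, had lower means in F133V than in vector cells in all 4 pairs: 103 against 111 CPM with olaparib and 106 against 117 CPM with DMSO alone, and 114 against 119 CPM with olaparib and 96.8 against 125 CPM with DMSO in coculture. Counts of the gene do not show which allele was read, so this does not check the genotype labels. Macrophage markers summed to 12070 to 14330 CPM in macrophage libraries and 10.5 to 22.2 CPM in cancer cell libraries, where the highest sums were in EV+DMSO replicates 1 and 2. Epithelial and prostate markers summed to at most 0.659 CPM in macrophages. In cancer cell libraries they summed to 82.6 to 465 CPM, with 4 to 7 of the 11 markers lacking any count. In F133V cells in coculture this sum averaged 135.4 CPM with olaparib and 447.6 CPM with DMSO. The markers went both ways there, so the sum does not stand for each of them. Of the 11, the 5 tested changed with olaparib by −2.85 to 2.27 (log2), with a median of 0.0022. F133V cells differed from vector cells in RNA composition. The nuclear transcript Gm26917 averaged 13700 CPM in F133V+Ola, 38700 CPM in F133V+DMSO, 4930 CPM in F133V+RAW264.7+Ola and 41500 CPM in F133V+RAW264.7+DMSO, against 1580 to 2560 CPM in vector cell groups. Its part in the results below was not tested, beyond scaling by library size alone. Exons of 12 of the 40 genes overlap exons of another gene, and how the counting treated strand is not stated, so their counts are less certain: Ccna2, Cdc25c, Foxm1, Knstrn, Cdca8, Kif4, Nusap1, Cdc20, Ube2c, Prc1, Kif20a and Top2a.

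The summed level of the 40 genes went opposite ways with olaparib on the 2 sides of the coculture. In cancer cells opposite macrophages it stood at 1575 ± 11.4 CPM with olaparib and 1444 ± 23.9 CPM with DMSO in vector cells, and at 1235 ± 11.1 and 752 ± 6.83 CPM in F133V cells (SD, n = 3 each). The macrophages opposite them went down, to 1516 ± 5.52 CPM with olaparib against 2046 ± 8.14 CPM with DMSO where the partner was vector cells, and to 1409 ± 12.7 against 1608 ± 11.1 CPM where it was F133V cells. Without macrophages, vector cells stood at 2127 ± 20.2 CPM with olaparib and 1676 ± 5.83 CPM with DMSO, and F133V cells at 948 ± 12.6 and 899 ± 1.37 CPM. In none of the 6 pairs did the olaparib and DMSO libraries overlap in this sum. The ratio of olaparib to DMSO was 1.27 in vector cells alone, 1.05 in F133V cells alone, 1.09 in vector cells in coculture and 1.64 in F133V cells in coculture, and 0.741 and 0.876 in macrophages opposite vector and F133V cells. Among cancer cells the order of the sums, from the lowest, was F133V+RAW264.7+DMSO, F133V+DMSO, F133V+Ola, F133V+RAW264.7+Ola, EV+RAW264.7+DMSO, EV+RAW264.7+Ola, EV+DMSO and EV+Ola, with no overlap between neighbours. In bulk libraries a changed share of cells late in the cycle and a changed amount of these mRNAs in each such cell cannot be told apart.

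**Figure D2:**
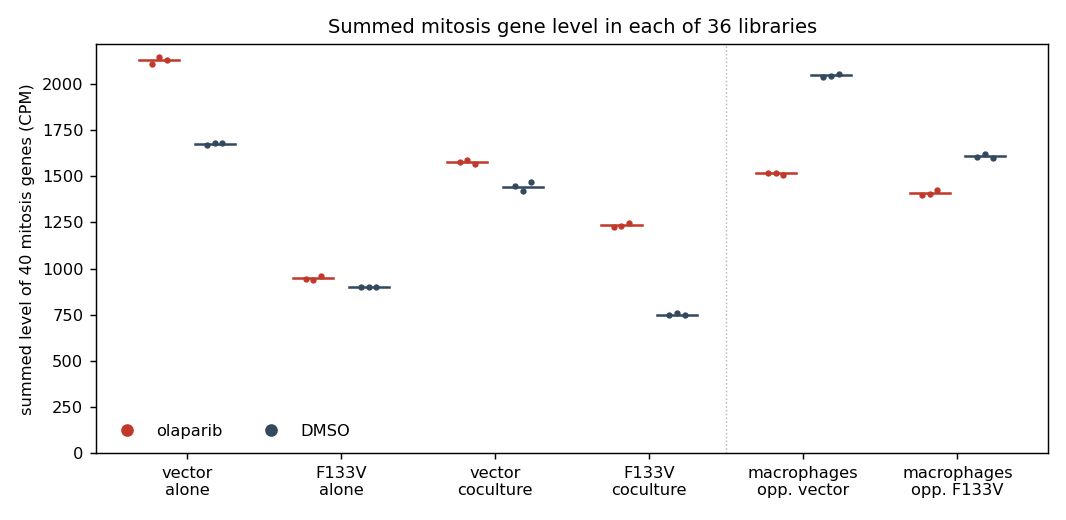
Summed level of the 40 mitosis genes (CPM, y axis from 0) in each of the 36 libraries, as points, with group means as bars, olaparib left of DMSO in each pair. In all 4 pairs of cancer cell groups the olaparib libraries lie higher, most clearly in F133V coculture (1235 against 751.8 CPM), and in both macrophage pairs they lie lower.

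Genes were tested one by one with edgeR's quasi-likelihood test over all genes of the fit and are called higher or lower at a Benjamini-Hochberg adjusted p under 0.05. The first question was what olaparib did in cancer cells grown alone. In vector cells all 40 genes were higher with olaparib, by 0.19 to 0.60 (log2), where 15.3% of the 15962 genes tested were called higher. Their median log2 fold change was 0.34, against 0.0024 for all genes, and for each of the 40 the olaparib libraries all lay above the DMSO libraries, as they did for 22% of all genes. Without EV+DMSO replicates 1 and 2, which held the most macrophage transcripts, 36 were called higher. That fit keeps 1 EV+DMSO library, assumed to vary like the libraries of the other groups, and the same holds wherever these replicates are left out below. Bub1, a checkpoint kinase, and Cenpf, a kinetochore protein, changed by 0.60 ± 0.053 and 0.57 ± 0.029, and Cdca8 and Incenp, of the chromosomal passenger complex, by 0.19 ± 0.053 and 0.20 ± 0.037. In F133V cells alone the response was smaller and mixed: 12 genes were higher, 2 were lower and 26 were not called, where 18.2% of all genes were called higher and 17.9% lower (median 0.045, against 0.0046 for all genes). Hmmr, which anchors spindle poles, rose by 0.32 ± 0.065, while Birc5, survivin, and Cdk1 fell (−0.18 ± 0.070 and −0.12 ± 0.040). The count of higher genes in F133V cells alone moved with the settings, to 19 with scaling by library size alone and to 6 when only these 2 groups were fitted. The median was 0.12 under library size alone, where that of all genes was 0.078, and 0.076 without F133V+Ola replicate 3. The olaparib response of F133V cells minus that of vector cells, tested itself, was lower for 29 of 40 genes (median −0.27), where 10.9% of all genes were called lower. Without EV+DMSO replicates 1 and 2 it was lower for 23. Ccnb1 had the largest such difference, −0.58 ± 0.078.

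In coculture the order of the genotypes turned round. F133V cells facing macrophages had 39 of 40 mitosis genes higher with olaparib, where 39.3% of all genes were called higher. The median log2 fold change was 0.74, against 0.025 for all genes. The largest changes were those of Nusap1, which bundles spindle microtubules (1.49 ± 0.12), and of Cenpf (1.46 ± 0.034). The exception was Mad2l1, the checkpoint protein MAD2, at −0.078 ± 0.064 (adjusted p = 0.27). Vector cells in coculture had 20 genes higher, where 12.6% of all genes were called higher (median 0.12, against 0.0014). This count fell to 13 without EV+RAW264.7+DMSO replicate 2. Hmmr and Ccnb2, a B-type cyclin, had the largest changes there, 0.30 ± 0.051 and 0.29 ± 0.070, and Kif23 and Ndc80 the smallest, −0.072 ± 0.056 and −0.016 ± 0.067, neither of them called. With scaling by library size alone, all genes moved in the F133V coculture comparison by a median of 0.206, and the median of the mitosis genes was then 0.95.

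The difference between genotypes was tested as well. The olaparib response of F133V cells minus that of vector cells, in coculture, was higher for 35 genes and lower for 1 (Mad2l1, −0.28 ± 0.086), where 35.4% and 32% of all genes were called (median 0.56). Nusap1 stood farthest out at 1.33 ± 0.14. Within F133V cells the response in coculture minus the response alone was higher for 38 genes, where 32.9% of all genes were called higher (median 0.66). Within vector cells it was lower for 22 genes, where 6.53% of all genes were called lower (median −0.21), and for 12 genes without EV+DMSO replicates 1 and 2.

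The next question was what olaparib did in the macrophages themselves. Opposite vector cells all 40 genes were lower, by −0.60 to −0.26, where 14.5% of the 14262 genes tested in macrophages were called lower. The median was −0.45, against −0.00049 for all genes, and for each of the 40 every olaparib library lay below every DMSO library, as for 19.8% of all genes. Ccnb1, cyclin B1, and Plk1, a kinase of the spindle, fell the most (−0.60 ± 0.052 and −0.59 ± 0.052), and Mad2l1 and Cdk1 the least (−0.26 ± 0.047 and −0.27 ± 0.045). Opposite F133V cells 24 genes were lower, 4 were higher and 12 were not called, where 29% of all genes were called lower and 28.5% higher (median −0.19, against 0.00067). The genes that rose there were Bub1 (0.46 ± 0.037), Knstrn, a kinetochore adaptor (0.28 ± 0.045), Kif23, a motor of the central spindle (0.23 ± 0.034), and Ube2c, a ubiquitin-conjugating enzyme that works with the anaphase-promoting complex (0.11 ± 0.046). Aurkb and Cdk1 fell the most (−0.57 ± 0.051 and −0.55 ± 0.045). The response opposite F133V cells minus that opposite vector cells was higher for 26 genes and lower for 4, where 25.7% and 23.7% of all genes were called (median 0.21), and ranged between −0.28 ± 0.064 for Cdk1 and 0.80 ± 0.062 for Knstrn.

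**Figure D3:**
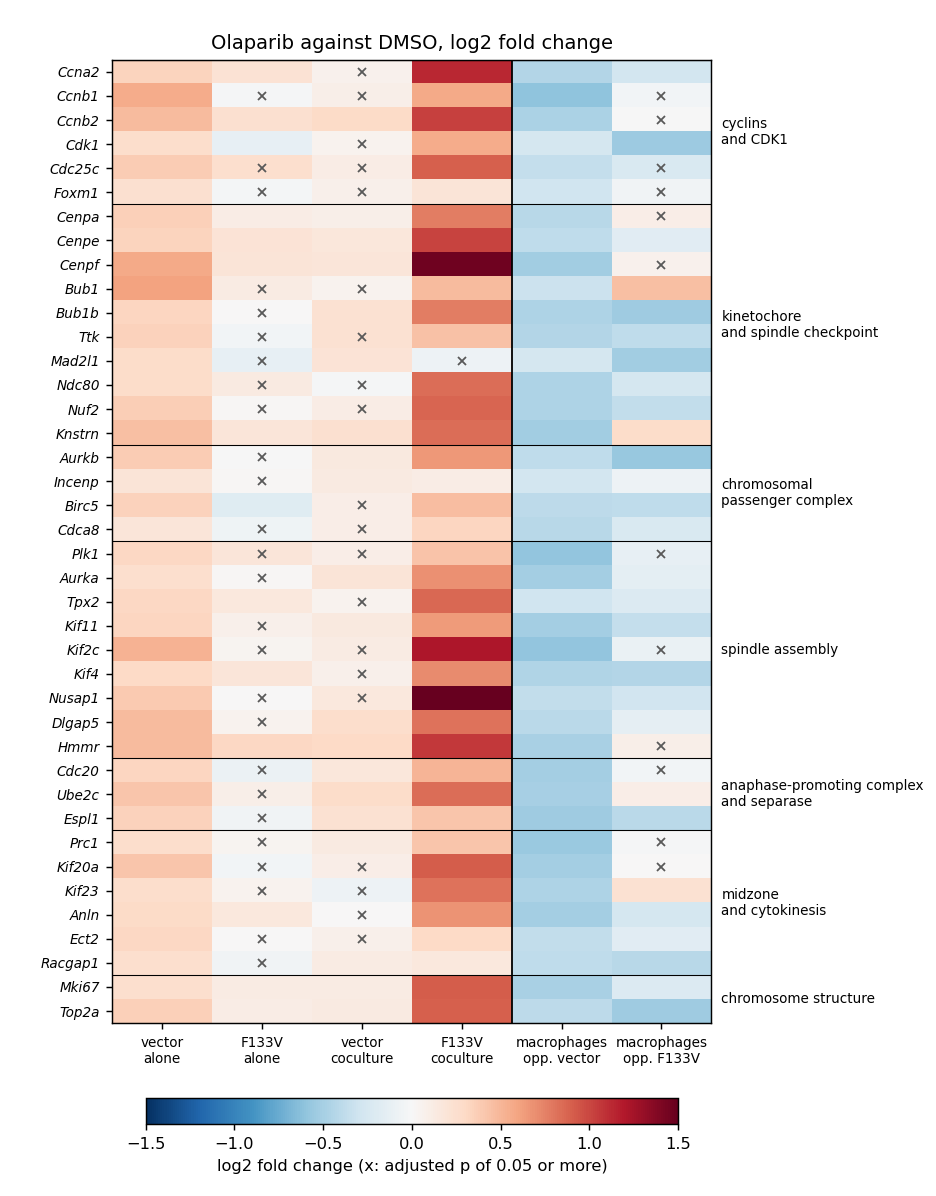
Log2 fold change of olaparib against DMSO for each of the 40 mitosis genes (rows, by role) in the 4 cancer cell comparisons and the 2 macrophage comparisons (columns). Crosses mark an adjusted p of 0.05 or more. Red, higher with olaparib, fills the column of vector cells alone and nearly all of that of F133V coculture, and blue, lower with olaparib, fills that of macrophages opposite vector cells.

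Cancer cells and macrophages of the cocultures were then compared in a fit over both. The response of macrophages minus that of cancer cells was lower for all 40 genes in vector cocultures, where 11.7% of the 16911 genes tested were called lower, with a median of −0.54. It reached from −0.79 ± 0.068 for Hmmr to −0.32 ± 0.058 for Cdk1. In F133V cocultures it was lower for 39 genes, where 32.8% of all genes were called lower, with a median of −0.99. Nusap1 had the largest difference (−1.85 ± 0.11), and Bub1, higher with olaparib in both cell types, was not called (−0.090 ± 0.072, adjusted p = 0.29). Taken gene by gene, 20 of the 40 were called lower in macrophages and higher in cancer cells of vector cocultures, and all 20 had a called difference between the cell types. Over the 12966 genes tested in both cell types, 2.98% had this pair of calls. In F133V cocultures 23 were, again all 23 with a called difference, against 14.2% of all genes with this pair of calls. A further 12 were called higher in F133V cells without a call in the macrophages, among them Ccnb1, Cdc20, Plk1 and Foxm1. Bub1, Kif23, Knstrn and Ube2c were called higher in both. The shares of all genes with either of these last pairs of calls were not counted. Taken apart, 39.3% of all genes were called higher in those F133V cells and 28.5% in those macrophages.

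**Figure D4:**
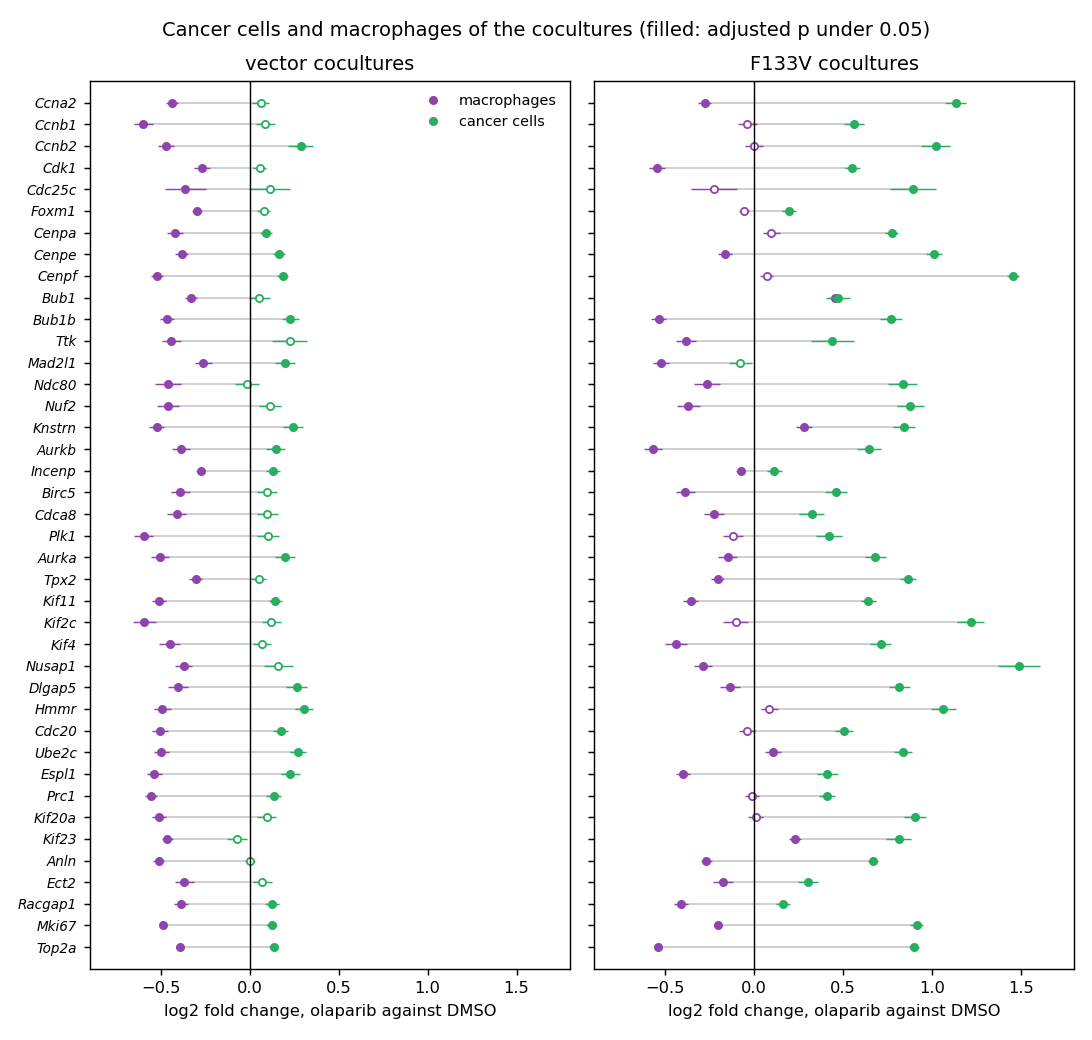
Log2 fold change of olaparib against DMSO (x axis) with its standard error for each of the 40 mitosis genes (rows) in macrophages (purple) and cancer cells (green) of vector cocultures, left, and F133V cocultures, right. Filled points have an adjusted p under 0.05. On the left all 40 macrophage points lie below 0 and cancer cell points lie near 0 or above it, and on the right cancer cell points reach up to 1.49, with 4 genes above 0 and called in both cell types.

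Among the cyclins and CDK1, Ccnb1 (chr13:100778650-100786570, GRCm38, minus strand) encodes cyclin B1, whose binding activates CDK1. In vector cells alone it stood at 43.3, 43.5 and 42.7 CPM with olaparib and 29.4, 28.8 and 29.9 CPM with DMSO, and in F133V cells alone at 22.6, 20.0 and 21.3 and 20.8, 21.1 and 22.9 CPM. The vector libraries did not overlap (0.56 ± 0.050, adjusted p = 1.3e-11), whereas the F133V libraries did (−0.019 ± 0.060, adjusted p = 0.85). In F133V cells in coculture it stood at 28.3, 28.0 and 31.5 CPM with olaparib and 19.5, 18.9 and 21.3 CPM with DMSO, all olaparib libraries lying higher (0.56 ± 0.058, adjusted p = 2.6e-11), and in vector cells at 27.2, 30.3 and 31.1 against 26.1, 29.7 and 27.3 CPM, which overlapped (0.088 ± 0.054). Macrophages opposite vector cells had 15.6, 16.4 and 17.2 CPM with olaparib and 24.2, 24.9 and 25.4 CPM with DMSO, a clear gap (−0.60 ± 0.052, adjusted p = 1.5e-13). Those opposite F133V cells had 17.4, 16.6 and 16.1 and 17.7, 17.1 and 16.6 CPM and overlapped (−0.037 ± 0.054).

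Cdk1 (chr10:69335146-69352938, minus strand), the kinase itself, differed from its cyclin. In F133V cocultures it stood at 21.3, 23.3 and 21.8 CPM with olaparib and 33.1, 31.2 and 32.5 CPM with DMSO in macrophages, and at 34.3, 36 and 33.8 and 23.4, 24.5 and 23.0 CPM in cancer cells. The macrophage libraries with olaparib all lay lower (−0.55 ± 0.045, adjusted p = 3.6e-15) and the cancer cell libraries with olaparib all lay higher (0.55 ± 0.043, adjusted p = 1.1e-14). In vector cocultures it stood at 27.6, 26.6 and 25.0 against 31.2, 31.7 and 32.6 CPM in macrophages (−0.27 ± 0.045) and at 46.4, 46.5 and 48.5 against 45.8, 43.4 and 47.0 CPM in cancer cells, where the libraries overlapped (0.056 ± 0.037). Grown alone, vector cells had 65.5, 63.4 and 62.9 CPM with olaparib and 53.4, 54.0 and 52.3 CPM with DMSO (0.26 ± 0.035), while F133V cells went the other way, with 35.6, 35.4 and 33.6 against 39.5, 37.2 and 36.8 CPM (−0.12 ± 0.040, adjusted p = 0.019).

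Ccna2, cyclin A2, changed in F133V coculture by 1.13 ± 0.058 and in the macrophages opposite by −0.28 ± 0.036. Ccnb2 changed by 1.02 ± 0.083 in those F133V cells and by −0.00036 ± 0.049 in those macrophages, the second not called. Cdc25c, the phosphatase that frees CDK1 of its inhibitory phosphates, changed by 0.89 ± 0.13 and −0.22 ± 0.13, again with only the cancer cells called. Foxm1 (chr6:128362967-128376146, plus strand), a transcription factor of late cell cycle genes, moved the least in F133V coculture among the 6 genes of entry into mitosis. It stood at 36.1, 35.4 and 33.4 CPM with olaparib and 29.9, 31.8 and 29.7 CPM with DMSO in F133V cells in coculture, without overlap (0.20 ± 0.041, adjusted p = 4.0e-05). In the macrophages opposite those F133V cells Foxm1 averaged 68.8 CPM with olaparib and 71.6 CPM with DMSO and was not called. Vector cells in coculture averaged 43.0 CPM with olaparib and 40.8 CPM with DMSO, and F133V cells alone 28.3 and 28.8 CPM. In the macrophages opposite vector cells it stood at 69.7, 72.6 and 72.5 against 89.7, 86.8 and 87.3 CPM, lower in every olaparib library (−0.30 ± 0.028, adjusted p = 3.2e-12).

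The kinetochore and spindle checkpoint genes join chromosomes to the spindle and hold back anaphase until all are attached. Of these 10 genes, 9 were higher with olaparib in F133V coculture and 6 in vector coculture, against 39.3% and 12.6% of all genes. In macrophages all 10 were lower opposite vector cells (all genes 14.5%). Opposite F133V cells 6 were lower and 2 higher (all genes 29% and 28.5%). Bub1b (chr2:118598211-118641591, plus strand), the checkpoint protein BUBR1, stood in F133V cocultures at 26.7, 26.0 and 25.3 CPM with olaparib and 37.5, 37.0 and 38.8 CPM with DMSO in macrophages, and at 18.4, 17.2 and 20.2 and 11.1, 10.6 and 11.0 CPM in cancer cells. Neither cell type's libraries overlapped (−0.54 ± 0.042, adjusted p = 5.9e-16, and 0.77 ± 0.061, adjusted p = 2.3e-14). Ndc80 (chr17:71496100-71526857, minus strand), which grips microtubules at the kinetochore, stood there at 9.16, 9.48 and 10.2 against 11.4, 12.6 and 10.7 CPM in macrophages and 8.69, 8.48 and 9.68 against 5.03, 4.57 and 5.56 CPM in cancer cells. Here too the groups were apart, lower in macrophages (−0.27 ± 0.072) and higher in cancer cells (0.83 ± 0.082). Its partner Nuf2 changed by −0.37 ± 0.066 in macrophages and 0.88 ± 0.075 in F133V cells. In vector cells in coculture Ndc80 stood at 11.4, 11.5 and 10.9 CPM with olaparib and 11.2, 11.6 and 11.3 CPM with DMSO, which overlapped (−0.016 ± 0.067).

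Bub1 and Mad2l1 are given apart, since each was an exception to the counts above. Bub1 (chr2:127801122-127831865, minus strand) stood in macrophages opposite F133V cells at 42.9, 42.2 and 43.7 CPM with olaparib and 30.1, 32.1 and 31.7 CPM with DMSO, all olaparib libraries higher (0.46 ± 0.037, adjusted p = 1.9e-15). Opposite vector cells it stood at 46.1, 45.5 and 44.2 against 58.4, 56.8 and 55 CPM, all olaparib libraries lower (−0.33 ± 0.034, adjusted p = 3.0e-11). The 2 responses differed by 0.78 ± 0.050 (adjusted p = 6.3e-19). Set between partners, Bub1 in macrophages opposite F133V cells differed from that opposite vector cells by −0.86 ± 0.036 under DMSO and by −0.074 ± 0.035 under olaparib. Mad2l1 (chr6:66535390-66547220, plus strand) had 12.2, 12.6 and 12.7 CPM with olaparib and 12.9, 13.2 and 13.4 CPM with DMSO in F133V cells in coculture, the olaparib libraries just below the others. In the macrophages opposite it stood at 21.0, 21.6 and 22.8 against 31.1, 31.9 and 31.1 CPM, a gap of −0.52 ± 0.044 (adjusted p = 9.2e-15).

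Cenpf (chr1:189640606-189688086, minus strand), a large kinetochore protein, had 97.8, 99.0 and 99.4 CPM with olaparib and 35.7, 38.5 and 33.5 CPM with DMSO in F133V cells in coculture, a change of 1.46 ± 0.034 (adjusted p = 2.4e-31). The vector cells of coculture had 107, 109 and 103 CPM with olaparib and 93.6, 93.0 and 93.3 CPM with DMSO, so that F133V cells with olaparib lay between them. In the macrophages opposite F133V cells Cenpf was not called, at 42.9, 40.7 and 45.0 against 41.0, 40.4 and 41.4 CPM (0.070 ± 0.037), while opposite vector cells it changed by −0.52 ± 0.035. Cenpe, a kinesin of the kinetochore, changed by 1.01 ± 0.045 in F133V coculture, Cenpa, the centromere histone, by 0.77 ± 0.036 and Ttk, the kinase MPS1, by 0.44 ± 0.12.

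**Figure D5:**
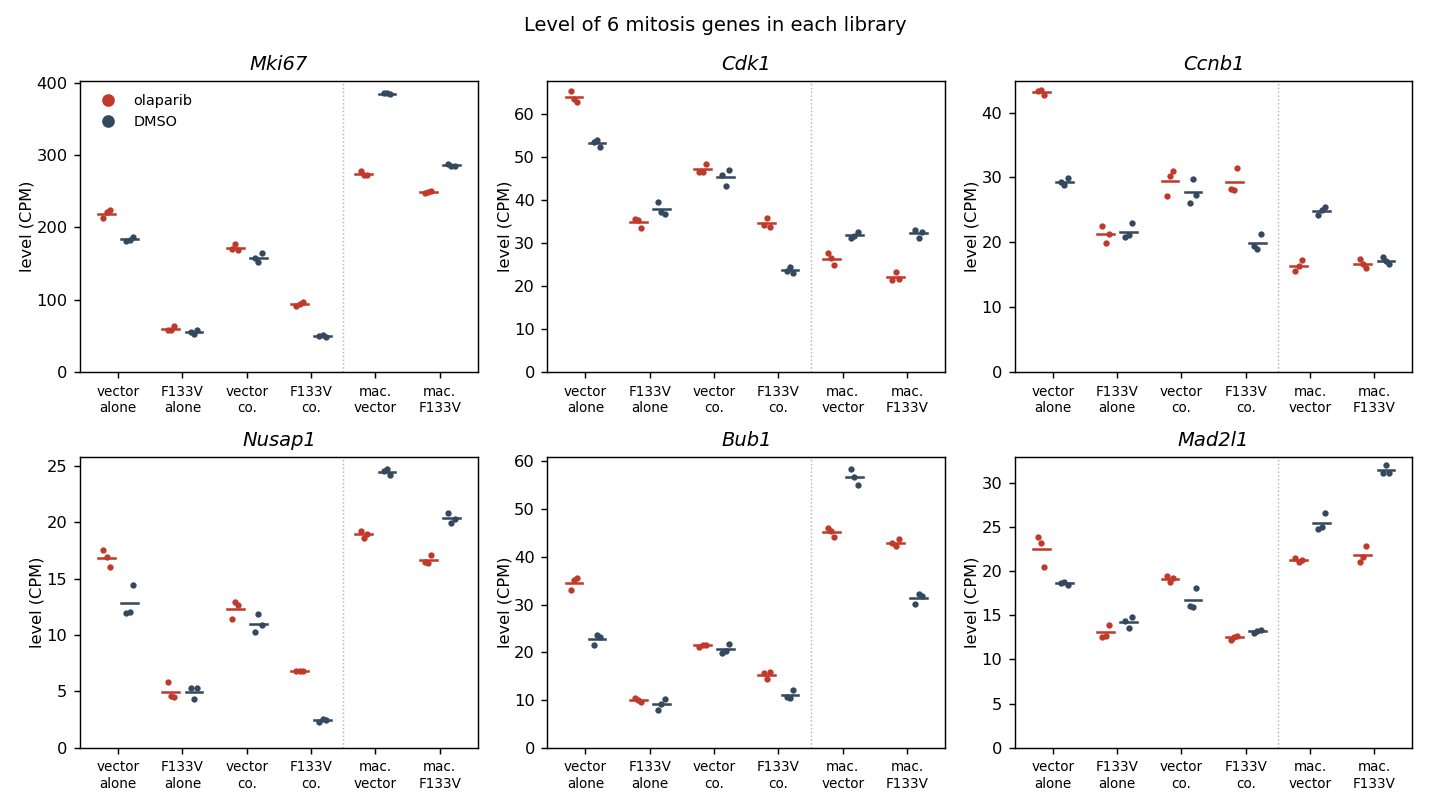
Level (CPM, y axes from 0) of Mki67, Cdk1, Ccnb1, Nusap1, Bub1 and Mad2l1 in every library, as points, with group means as bars, olaparib left of DMSO in each pair, cancer cells left of the dotted line and macrophages right of it. Mki67 and Nusap1 lie higher with olaparib in F133V coculture and lower in both macrophage pairs, Bub1 lies higher with olaparib in macrophages opposite F133V cells, and Mad2l1 does not lie higher in F133V coculture.

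The chromosomal passenger complex corrects faulty attachments and later guides cytokinesis. All 4 of its genes were higher with olaparib in F133V coculture (all genes 39.3%). All 4 were lower in macrophages opposite either partner (all genes 14.5% opposite vector and 29% opposite F133V cells). Aurkb (chr11:69045647-69051664, plus strand), its kinase, stood in F133V cocultures at 15.5, 17.3 and 15.6 CPM with olaparib and 23.4, 24.2 and 23.8 CPM with DMSO in macrophages, and at 13.9, 14.8 and 14.5 and 8.95, 9.44 and 9.22 CPM in cancer cells. Neither pair overlapped (−0.57 ± 0.051, adjusted p = 5.0e-14, and 0.65 ± 0.066, adjusted p = 2.7e-11). Incenp, its scaffold, moved the least in F133V coculture among the genes called there, by 0.11 ± 0.042, Birc5 by 0.46 ± 0.064 and Cdca8, borealin, by 0.32 ± 0.071. In F133V cells alone Aurkb stood at 10.8, 10.9 and 8.80 CPM with olaparib and 9.90, 10.2 and 10.4 CPM with DMSO, which overlapped (adjusted p = 1).

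Of 9 spindle assembly genes, all 9 were higher with olaparib in F133V coculture and 4 in vector coculture (all genes 39.3% and 12.6%). In macrophages opposite vector and F133V cells 9 and 6 were lower (all genes 14.5% and 29%). Kif11 (chr19:37376403-37421859, plus strand), the motor that pushes spindle poles apart, stood in F133V cocultures at 28.4, 27.2 and 29.7 CPM with olaparib and 35.2, 37.4 and 36.6 CPM with DMSO in macrophages, and at 33.6, 34.2 and 33.9 and 22.1, 23.0 and 19.8 CPM in cancer cells. The groups did not overlap in either cell type (−0.36 ± 0.042, adjusted p = 2.4e-10, and 0.64 ± 0.043, adjusted p = 2.0e-16). Plk1 (chr7:122159439-122169873, plus strand), a kinase of spindle maturation, stood at 12.6, 14.4 and 14.9 against 10.9, 11.3 and 8.80 CPM in F133V cells in coculture (0.42 ± 0.074, adjusted p = 2.9e-06). The macrophages opposite them had 16.1, 15.2 and 15.0 against 16.6, 17.4 and 16.3 CPM, apart but not called (adjusted p = 0.062), and those opposite vector cells 15.4, 16.8 and 16.0 against 23.7, 25.2 and 24 CPM, among the larger falls (−0.59 ± 0.052).

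Nusap1 (chr2:119618298-119651244, plus strand) helps microtubules form around chromosomes. In F133V cells in coculture it stood at 6.77, 6.84 and 6.81 CPM with olaparib and 2.27, 2.53 and 2.46 CPM with DMSO, the largest rise of the 40 genes (1.49 ± 0.12, adjusted p = 3.0e-14). F133V cells alone had 5.82, 4.55 and 4.47 and 5.28, 4.32 and 5.33 CPM, which overlapped, so the coculture libraries lay below them with DMSO and above them with olaparib. Kif2c changed by 1.22 ± 0.076 in F133V coculture, Hmmr by 1.06 ± 0.069, Tpx2, which activates Aurora A, by 0.86 ± 0.046, Dlgap5, which stabilizes spindle fibres, by 0.82 ± 0.060, Kif4, a chromosome-bound kinesin, by 0.71 ± 0.060 and Aurka, Aurora A itself, by 0.68 ± 0.060. In the macrophages opposite, Kif2c and Hmmr were not called (−0.10 ± 0.070 and 0.085 ± 0.049), and Kif4 fell (−0.44 ± 0.061).

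The 3 genes that bring on anaphase are Cdc20, which activates the anaphase-promoting complex, Ube2c, and Espl1, separase, the protease that cuts cohesin. All 3 were higher with olaparib in vector cells alone and in cancer cells of both kinds of coculture. Over all genes 15.3% were called higher in vector cells alone, 12.6% in vector coculture and 39.3% in F133V coculture. In F133V cells alone the changes of these 3 genes, −0.093 ± 0.050, 0.092 ± 0.052 and −0.053 ± 0.063, were not called. Cdc20 (chr4:118432901-118437352, minus strand) stood in vector cocultures at 22.2, 22.5 and 23.1 CPM with olaparib and 31.8, 32.5 and 31.8 CPM with DMSO in macrophages, and at 35.0, 34.3 and 34.6 and 31.0, 29.3 and 31.9 CPM in cancer cells. The macrophages with olaparib were lower without overlap (−0.50 ± 0.045, adjusted p = 2.5e-13) and the cancer cells higher without overlap (0.17 ± 0.041, adjusted p = 0.0013). In F133V cocultures macrophages had 22.0, 22.1 and 22.4 against 22.4, 24 and 21.9 CPM, which overlapped, and cancer cells 23.3, 21.9 and 23.6 against 16.4, 16.6 and 15.4 CPM (0.51 ± 0.049). Opposite F133V cells Espl1 fell in macrophages (−0.40 ± 0.041) whereas Ube2c rose (0.11 ± 0.046).

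Among 6 genes of the midzone and cytokinesis, all 6 rose with olaparib in F133V coculture (all genes 39.3%). All 6 fell in macrophages opposite vector cells (all genes 14.5%), while opposite F133V cells 3 fell and 1 rose (all genes 29% and 28.5%). Ect2 (chr3:27097222-27153878, minus strand), which turns on RhoA for the contractile ring, stood in F133V cells in coculture at 22.7, 22.4 and 21.6 CPM with olaparib and 17.7, 17.4 and 19.1 CPM with DMSO, apart by 0.30 ± 0.054 (adjusted p = 5.0e-06). The macrophages opposite had 17.0, 16.9 and 19.3 against 19.0, 19.7 and 21.5 CPM, which overlapped although the test called them lower (−0.17 ± 0.056, adjusted p = 0.0063). Kif23 (chr9:61915905-61946774, minus strand) stood in those macrophages at 56.6, 52.8 and 55.4 CPM with olaparib and 45.6, 48.3 and 46.9 CPM with DMSO, and in macrophages opposite vector cells at 58.0, 56.2 and 54.8 and 78.0, 75.2 and 80.0 CPM. The first pair lay higher with olaparib and the second lower. Racgap1, the partner of Kif23 in the same complex, fell opposite F133V cells (−0.41 ± 0.039), Anln, anillin of the contractile ring, fell (−0.27 ± 0.030), and Prc1, which bundles midzone microtubules, and Kif20a were not called (−0.012 ± 0.037 and 0.0083 ± 0.044).

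Mki67 (chr7:135689784-135716361, minus strand) encodes Ki-67, which coats mitotic chromosomes and marks proliferating cells. In F133V cocultures it stood at 248, 249 and 250.3 CPM with olaparib and 288, 285 and 285 CPM with DMSO in macrophages, and at 91.5, 94.0 and 97.5 and 50.3, 51.7 and 48.0 CPM in cancer cells. In vector cocultures it stood at 278, 273 and 273 against 386, 385 and 384 CPM in macrophages and 170.2, 177 and 168 against 157, 152 and 165 CPM in cancer cells. No pair overlapped: the macrophages with olaparib were lower (−0.20 ± 0.017 and −0.49 ± 0.016) and the cancer cells higher (0.91 ± 0.038 and 0.12 ± 0.033). Alone, vector cells had 213, 221 and 223 CPM with olaparib and 181, 183 and 187 CPM with DMSO and F133V cells 58.3, 58.5 and 63.7 and 55.9, 52.5 and 58.0 CPM (0.12 ± 0.040, adjusted p = 0.017). Top2a (chr11:98992943-99024189, minus strand), the topoisomerase that untangles sister chromatids, stood in F133V cocultures at 121, 123 and 124 against 179, 179 and 176 CPM in macrophages and 138, 134 and 137 against 72.1, 70.8 and 76.8 CPM in cancer cells. This was lower in macrophages (−0.54 ± 0.021, adjusted p = 2.0e-27) and higher in cancer cells (0.90 ± 0.028, adjusted p = 3.4e-27).

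The genotypes were next compared under olaparib, alone and in coculture. Alone, F133V cells with olaparib had all 40 genes lower than vector cells with olaparib, where 33.2% of all genes were called lower. The median was −1.23, against 0.012 for all genes. Mki67 and Kif2c, a kinesin that takes microtubules apart, lay farthest below (−1.86 ± 0.036 and −1.82 ± 0.060), and Ect2 and Anln the least (−0.33 ± 0.049 and −0.31 ± 0.028). With DMSO 39 were lower, where 34% of all genes were called lower (median −0.96), and Ect2 was not called (−0.025 ± 0.050). With 1 EV+DMSO library kept, as above, 39 were called lower. In coculture with olaparib 33 were lower and 2 higher, where 31.2% of all genes were called lower and 28.8% higher (median −0.38). The higher genes were Anln (0.42 ± 0.029) and Dlgap5 (0.21 ± 0.054), while Bub1b and Kif2c were the lowest (−0.93 ± 0.049 and −0.89 ± 0.057) and Ccnb1 stood level at −0.011 ± 0.053. With DMSO all 40 were lower, where 42% of all genes were called lower (median −0.91), with Nusap1 at −2.19 ± 0.11 and Kif2c at −1.98 ± 0.071. In this last comparison, scaling by library size alone moved all genes by a median of −0.253 and put the mitosis median at −1.17. Whether the gap between genotypes under olaparib differed between growth alone and coculture was not tested.

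Coculture was compared with growth alone within each genotype and treatment. F133V cells with olaparib had 34 genes higher in coculture and 1 lower (Ect2, −0.20 ± 0.051), where 26.7% and 26.5% of all genes were called (median 0.39). Cenpf rose by 0.95 ± 0.032 and Ccnb2 by 0.77 ± 0.079. With DMSO 26 genes were lower in coculture and 2 higher, Bub1 (0.27 ± 0.076) and Racgap1 (0.17 ± 0.042), where 34.8% and 35.6% of all genes were called (median −0.24), Nusap1 being the lowest at −1.03 ± 0.13. In this comparison scaling by library size alone moved all genes by a median of −0.208, which put the mitosis median at −0.45 and Racgap1 at −0.038 without a call. Vector cells with olaparib had 39 genes lower in coculture, where 18.5% of all genes were called lower (median −0.45), Bub1 (−0.69 ± 0.054) and Anln (−0.59 ± 0.029) being the lowest and Birc5 the one not called (−0.10 ± 0.054). With DMSO 31 were lower and 1 higher (Birc5, 0.15 ± 0.056), where 18.6% and 23.4% of all genes were called (median −0.23), and 23 were lower without EV+DMSO replicates 1 and 2.

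Macrophages were last compared by partner. With DMSO, macrophages opposite F133V cells had 36 genes lower than those opposite vector cells and 1 higher, where 28.1% and 25.5% of all genes were called (median −0.37). Bub1 and Kif23 were farthest down (−0.86 ± 0.036 and −0.73 ± 0.032), and Mad2l1 was the one higher, at 31.1, 31.9 and 31.1 CPM opposite F133V cells and 24.7, 25.0 and 26.5 CPM opposite vector cells (0.30 ± 0.044, adjusted p = 4.3e-08). Under olaparib 18 genes were lower and 22 were not called, where 17.6% of all genes were called lower (median −0.10), and the count was 9 with scaling by library size alone. Cdc25c and Nuf2 were lowest there (−0.38 ± 0.13 and −0.30 ± 0.068).

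Another 40 mitosis genes, beyond those above, were listed from general knowledge and tested in the same fits. Earlier results of these data were known when they were listed, so they are not an independent check. Besides the shares given above, 15.1% of all genes were called lower in vector cells alone, 10.9% in vector coculture and 37% in F133V coculture, and 14% were called higher in macrophages opposite vector cells. With olaparib 33 were higher in vector cells alone, 7 were higher and 6 lower in F133V cells alone, 12 were higher in vector cells in coculture, and 30 were higher and 10 lower in F133V cells in coculture (medians 0.35, 0.024, 0.10 and 0.49). In macrophages 38 were lower opposite vector cells, and 25 were lower and 2 higher opposite F133V cells (medians −0.44 and −0.25). Pbk, a mitotic kinase, changed by 1.37 ± 0.069 in F133V cells in coculture and −0.88 ± 0.068 in the macrophages opposite. Hjurp, which loads the centromere histone, rose by 0.81 ± 0.025 in those F133V cells, whereas Psrc1, a microtubule-binding protein, fell (−0.96 ± 0.033).

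The products of the 17 condensin and cohesion genes shape chromosomes and hold sisters together. In F133V coculture these genes went both ways, with 6 higher and 9 lower (median −0.21), against 39.3% and 37% of all genes. Pds5a and Wapl, regulators of cohesin on chromatin, fell there (−0.78 ± 0.020 and −0.75 ± 0.030). In vector cells alone 11 of the 17 were higher and 2 lower (all genes 15.3% and 15.1%). In F133V cells alone 2 were higher and 4 lower (all genes 18.2% and 17.9%). In vector coculture 3 were higher (all genes 12.6%). In macrophages 11 were lower and 1 higher opposite vector cells (all genes 14.5% and 14%). Opposite F133V cells 9 were lower and 2 higher (all genes 29% and 28.5%). Ncapd2, a condensin subunit, fell in macrophages (−0.36 ± 0.028 opposite vector cells) and rose in vector cells alone (0.38 ± 0.028). Of 12 genes for subunits of the anaphase-promoting complex and its activator Fzr1, 7 were higher and 3 lower in F133V coculture, and in macrophages opposite vector cells their median was −0.023. Opposite F133V cells 5 were higher and 4 lower, against 28.5% and 29% of all genes. In the remaining comparisons of olaparib, 3 were higher and 1 lower in vector cells alone, 1 and 2 in F133V cells alone, and 2 and 1 in vector coculture. The shares of all genes called are those given above for each comparison.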

How the data were processed

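The authors deposited raw read counts per gene for each library, 46078 genes a file, with no normalization. STAR, TopHat, HTSeq and DESeq2 and the build GRCm38 are named per the submitters' processing notes, without the roles and versions of these tools or how strand was handled, which the sources used here do not give. Of all reads counted, 17.2% to 21.5% fell in no gene and stayed out of library sizes. Groups came from the labels, and for the macrophages of vector partners with olaparib, whose titles leave out the partner, from the group entry. The genotype entry of the macrophages was not used, as it differs between the groups with F133V partners (F133V with DMSO, wild type with olaparib).

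TMM-scaled counts were fitted with edgeR 4.0.16 (R 4.3.3) by its quasi-likelihood method, after filterByExpr had dropped genes under a minimum count of 10, with Benjamini-Hochberg adjustment over all genes of a fit and calls at an adjusted p under 0.05. The 24 cancer cell libraries, the 12 macrophage libraries and the 24 coculture libraries were fitted apart, with 15962, 14262 and 16911 genes tested. All 40 mitosis genes passed the filter in each fit. Values are log2 fold change ± SE, the SE taken from the fold change and its F value, and DESeq2 1.42.0 was one alternative. The scripts were tested on simulated data.

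The members and all lists were chosen with earlier results of these data known. Any of the 40 genes could be named. Of these, 12 chosen ones (Mki67, Top2a, Ccnb1, Cdk1, Foxm1, Plk1, Aurkb, Cdc20, Kif11, Bub1b, Ndc80 and Ect2) are given by library. Most of the 12 are shown so for only some of the olaparib comparisons. Genes from the 2 highest and the 2 lowest fold changes of a comparison are named as well. From the other lists, up to 3 called genes with the smallest adjusted p in a comparison are named. Bub1, Mad2l1, Cenpf, Nusap1 and Kif23 are given by library after their values were seen.

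Whether replicate numbers pair libraries was checked by the correlation of deviations from group means, which lay between −0.052 and 0.044 over pairs, so they were not used as a block. Promoter sequences come from RefSeq on GRCm38.p6, and other coordinates from GENCODE on GRCm38.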

Additional observations from a re-analysis of the deposited data

Results flagged for a closer look

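All results below are differences between olaparib responses, each tested by an interaction contrast in edgeR's quasi-likelihood test. For the response of macrophages minus that of cancer cells, all 40 mitosis genes were called lower in vector cocultures (all genes 11.7%). They lay between −0.79 (Hmmr) and −0.32 (Cdk1). In F133V cocultures 39 were called lower (all genes 32.8%), between −1.85 (Nusap1) and −0.26 (Incenp). For the response of F133V cells minus that of vector cells, 29 were called lower when the cells grew alone (all genes 10.9%). They lay between −0.58 (Ccnb1) and −0.12 (Anln). In coculture 35 were called higher, up to 1.33 (Nusap1), and Mad2l1 was lower (−0.28), where 35.4% and 32% of all genes were called.

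For the response in coculture minus that alone, 22 genes were called lower in vector cells (all genes 6.53%), between −0.54 (Bub1) and −0.13 (Mki67). In F133V cells 38 were called higher (all genes 32.9%), between 0.22 (Racgap1) and 1.48 (Nusap1). The response of macrophages opposite F133V cells minus that of macrophages opposite vector cells was called higher for 26 and lower for 4. Over all genes these calls were 25.7% and 23.7%. Knstrn was the highest (0.80) and Cdk1 the lowest (−0.28). The same F133V libraries enter several of the differences in this section, and Gm26917 differed between their treatments, as given above. Its part was not tested.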

How the results depend on the processing

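Each count of called mitosis genes was recomputed with RLE scaling, library size alone, low counts left in, the replicate block, protein-coding genes only (added after seeing the data), DESeq2, only the groups compared, and without each library in turn. Of 348 recomputed counts, 179 of 180 with one library left out and 164 of the other 168 stayed within 1.5 times the count reported and kept its direction. The exceptions were olaparib in F133V cells alone, with 19 higher under library size alone and 6 with only the groups compared (12 reported), partner macrophages under olaparib, with 9 lower under library size alone (18 reported), and coculture by olaparib in vector cells, with 12 lower without EV+DMSO replicates 1 and 2, which leaves that group 1 library (22 reported). Olaparib in vector coculture gave 13 to 20 higher without one library each. Calls of single genes moved as well. With 1 library left out, 240 results of single genes lost their call and 39 gained one, while 6921 stayed as reported. Calls were lost and gained under the other settings too. Of called single genes, only Racgap1 reversed, in F133V coculture against growth alone with DMSO, to −0.038 under library size alone (0.17 reported). The cause of these changes was not tested. The replicate block left the count unchanged in 22 of 23 results and moved genotype by olaparib alone to 30, and as the numbers did not pair libraries it was not used. The smallest difference called among the mitosis genes was −0.075 ± 0.024, for Incenp with olaparib in macrophages opposite F133V cells.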

Other observations

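Factors that regulate transcription of mitosis genes (19 listed, among them E2F, retinoblastoma family, MuvB and NF-Y genes) were counted with olaparib as well. Here 4 were higher and 11 lower in F133V cells in coculture, against 39.3% and 37% of all genes, and E2f6, a repressor E2F, fell (−1.15 ± 0.034) and Lin54, the MuvB subunit that contacts the CHR, fell (−1.01 ± 0.044). In vector cells alone 8 were higher and 3 lower (all genes 15.3% and 15.1%), with Mybl2, the activating partner of MuvB, at 0.36 ± 0.068. In F133V cells alone 2 were higher and 4 lower (all genes 18.2% and 17.9%), and in vector coculture 1 was higher (12.6%). In macrophages 10 were lower and 1 higher opposite vector cells (all genes 14.5% and 14%). Opposite F133V cells 9 were lower and 3 higher (all genes 29% and 28.5%). There E2f7 averaged 3.33 ± 0.384 CPM with olaparib and 7.55 ± 0.270 CPM with DMSO (SD, n = 3 each; −1.17 ± 0.097), and Rb1, the retinoblastoma protein, rose (0.51 ± 0.038).

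Brakes on the step into mitosis (16 listed) went both ways in each comparison. Ccng2, cyclin G2, which is high in cells leaving the cycle, averaged 69.2 ± 0.625 CPM with olaparib and 22.8 ± 0.349 CPM with DMSO in macrophages opposite F133V cells (1.60 ± 0.034, edgeR adjusted p = 4.2e-39). Plk2, a stress-induced kinase, rose in those macrophages (1.45 ± 0.023) and fell in the F133V cells opposite them (−1.15 ± 0.030), as did Plk3 (−1.03 ± 0.025) and Gadd45a (−0.99 ± 0.033) in those cells. Of the 16, 6 were higher and 6 lower in those macrophages, against 28.5% and 29% of all genes. The same counts were 6 and 7 in macrophages opposite vector cells (all genes 14% and 14.5%), 5 and 8 in F133V coculture (39.3% and 37%), 4 and 2 in vector coculture (12.6% and 10.9%), 6 and 4 in F133V cells alone (18.2% and 17.9%), and 7 and 3 in vector cells alone (15.3% and 15.1%).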
